A study of Mus musculus with 6 samples.

Results

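The response to acute injury of CD140a(-)/Sca1(+) cells, one of 3 sorted stromal subpopulations of mouse hind limb muscle, was read from 2 libraries, 1 of control muscle and 1 of injured muscle. Genes were used when their deposited value, which is on a log2 scale, was at least 6 in one of these 2 libraries, and 5579 of the 22483 genes in the table met this limit. A deposited value of 6 corresponds to 52.7 normalized counts, and the gene just inside the limit stood at 6.0004 and the gene just outside at 5.9997. The change of a gene is the deposited value after injury minus the value in control, and "higher" and "lower" in what follows mean a change of at least 3-fold on this scale. With 1 library a side there was no replicate and no test, so every change below compares these 2 libraries. The intervals given cover counting error only, and the spread between mice is unknown.

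The mice were Swiss white, 8 to 12 weeks old, and nothing in the labels gives a transgene or an allele. Injury was made by injection of cardiotoxin at 20 uM, a venom toxin that lyses muscle fibers, and cells were taken on day 3, while the untreated muscle of the other leg gave the control. The labels name the tibialis anterior, whereas the study's text on acute injury names the gastrocnemius and soleus, and how many of the 5 mice given for acute injury went into each library is not stated. BrdU is described in the methods as a daily injection, without saying whether the sequenced cells came from mice that received it. Before sorting, the digested cells were kept for 8 h at body temperature so that surface markers could recover, cells with CD45 (leukocytes), CD31 (endothelium) or CD11b (myeloid cells) on their surface were excluded by the gate, and all libraries share these steps. RNA went into QuantSeq libraries, which read the 3' end of each transcript. The estimated depth was 11984413 reads in control and 14173590 after injury, against 2094353 to 4076205 in the other 4 libraries, and 28.2% and 39.0% of all genes were listed at 0, that is without a read. A library of injured CD140a(+)/Sca1(-) cells, used below only for values set side by side, lists 69.1% of its genes at 0, among them 1020 of the 5579 genes used here.

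The sort markers were checked first, and one of them goes against its label. Ly6a, which encodes Sca1 (chromosome 15, 74994877 to 74998031 of GRCm38, minus strand), stood at 5850.02 normalized counts in control and 1177 after injury, so the library of injured cells held 4.97-fold (95% counting interval 4.85 to 5.10) less of the transcript that names the sort. In the CD140a(+)/Sca1(-) libraries Ly6a stood at 70.4 and 2.09, and in the CD140a(+)/Sca1(+) libraries at 253 and 4099. Pdgfra, which encodes CD140a, was present in this CD140a(-) sort, at 211 in control and 335 after injury. The control value is above those of both CD140a(+) control libraries, which held 33.6 and 26.3, so at the RNA level absence of CD140a was not seen and the cells are called here by the labelled surface phenotype. Of the genes of the gate, Ptprc (CD45) went from 20.5 to 2.50, Pecam1 (CD31) from 47.4 to 1.39 and Itgam (CD11b) from 24 to 22.5, none of them reaching the value limit. Of 38 markers of fibro-adipogenic precursors (FAPs) and fibroblast subsets, all were detected in control and 37 after injury. Their summed share of the counts was 1.03% and 1.14%, so fibroblast RNA was present on both sides. Ly6a is itself among the 38, with 5850 of their 23058 summed normalized counts in control and 1177 of 23536 after injury.

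FAPs are mesenchymal cells that lie between muscle fibers. They proliferate and lay down matrix after a fiber is damaged, send growth signals to muscle stem cells, and can turn into adipocytes or myofibroblasts. Sca1, a surface protein tethered to the membrane by a lipid anchor, marks many of these cells and also capillary endothelium, and its gene responds to interferon. Interferons are antiviral signals that switch on a large set of genes in most cell types.

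Of the 5579 genes, 220 were higher after injury (3.94%) and 327 were lower (5.86%). The median change over all genes used was -0.13, with a 5th percentile of -1.70 and a 95th percentile of 1.41. A gene that passed the value limit only through the library where it is high had to differ, so counts over genes used describe those genes and not whole lists. At an 8-fold limit 33 genes were higher and 69 lower. Of the genes past 3-fold, 16 were listed at 0 after injury and 1 in control, the pseudogene Rps12-ps3, named here after its value was seen. Genes of the 44 gene lists made up 92 of the 220 and 98 of the 327. The changes had no common direction, and 40.2% of the genes past 3-fold were higher. When both libraries were scaled to one median the centre moved by 0.10 and the share became 47.1%, and no named gene past 3-fold changed its direction.

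**Figure D1:**
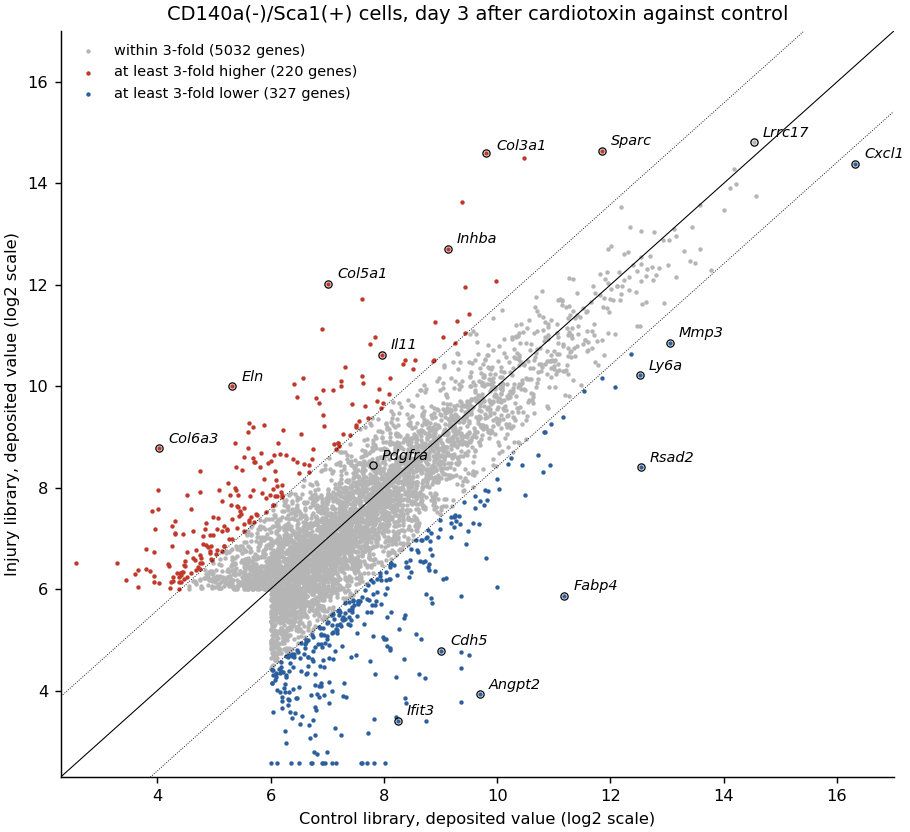
Deposited value (log2 scale) of each of the 5579 genes used in the control library (horizontal axis) and in the injury library (vertical axis) of CD140a(-)/Sca1(+) cells. Each point is a gene, the solid line marks equal values and the dotted lines a 3-fold difference; the 220 red genes include Col3a1 and Eln, the 327 blue genes include Angpt2 and Rsad2, and the row of points at the lower edge holds genes without a read after injury.

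Genes of the extracellular matrix led the increases. Apart from Ereg, Inhba, Sfrp2 and Tmem176a, the 20 largest increases among genes with a deposited value of at least 8 were those of matrix genes. Tmem176a, a membrane protein, went from 40.7 to 572 normalized counts. Over 7 matrix lists with 217 genes in the table, 139 were used, 52 were higher (37.4%, against 3.94% of all genes used) and 3 were lower, with a median change of 1.22. Matrix genes thus were 23.6% of all genes that were higher. Their summed share of the normalized counts was 2.47% in control (95% counting interval 2.46 to 2.48) and 8.43% after injury (8.41 to 8.44). The study drew 34 matrix and growth factor genes from these same libraries for this response, and 32 of them were higher here while Mmp23 and Hgf did not reach the value limit, at 0 and 30.8 and at 0.911 and 20.9, which is no independent evidence of their direction.

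All 7 fibrillar collagens used were higher, with a median change of 4.10. These collagens form the cross-banded fibrils that give scar and tendon their tensile strength. Col3a1, the reticular collagen of early repair, lies on chromosome 1 from 45311538 to 45349706 (plus strand) and went from 882 to 24649.7 normalized counts, 28.0-fold (interval 27.2 to 28.8). Col5a1 (chromosome 2, 27886425 to 28039514, plus strand), a chain of collagen V that starts fibrils, had the largest increase of the genes with a deposited value of at least 8, from 118 to 4153, a change of 5.01 on the deposited scale and 35.2-fold (interval 32.5 to 38.2). Both chains of collagen I, the main collagen of mature scar, stood far above control. Col1a1 went from 652 to 12744 and Col1a2 from 1417 to 23272. Col5a2 went from 184 to 3349 and Col5a3 from 104 to 801. The smallest increase of the 7 was that of Col27a1, from 24.6 to 95.7. As a group the fibrillar collagens held 0.151% of the counts in control and 3.34% after injury, and in the other sorts 0.264% and 2.76% in CD140a(+)/Sca1(-) and 0.165% and 2.17% in CD140a(+)/Sca1(+).

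Among other collagens 6 of 10 genes used were higher (60%, against 3.94% of all genes used) and none lower. Of the 6, all but Col6a1 passed the value limit only through the injured library. All 32 genes of the list summed to 0.150% of counts in control and 0.246% after injury. Collagen VI, which forms beaded filaments around cells, was higher in all 3 of its named chains. Col6a3 went from 6.66 to 426, 64.0-fold (interval 45.5 to 90.4), Col6a1 from 76.9 to 872, and Col6a2 from 40.6 to 373. Col6a3 was the chain with the lowest control value, and in the CD140a(+)/Sca1(-) libraries it stood at 212 and 77.1. Col8a1, a short-chain network collagen, went from 47.6 to 588. Col12a1 and Col14a1, which sit on the surface of fibrils, went from 9.76 to 152 and from 28.1 to 221. The other 22 of its 32 members stayed under the value limit.

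Enzymes that fold, cut and cross-link collagen and elastin were higher in 9 of 25 (36%, against 3.94% of all genes used). None was lower. Lox and Loxl1, copper enzymes whose oxidation of lysine starts the cross-links, went from 83.2 to 1141 (13.7-fold, interval 12.5 to 15.1) and from 73.5 to 1044 (14.2-fold, interval 12.8 to 15.8). Loxl2, a relative with the same activity, went from 319 to 1451. Bmp1, the protease that removes the collagen C-propeptide, went from 44.8 to 327, and its enhancer Pcolce from 41.2 to 149. Adamts2, which removes the N-propeptide, went from 81.0 to 522, and Plod2, a lysyl hydroxylase, from 65.6 to 389. Members for both ends of the molecule and for the cross-link itself were therefore higher.

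Elastic fiber genes were higher in 5 of 13 (38.5%, against 3.94% of all genes used) and lower in none. Of the 5, Eln, Fbn1, Efemp2 and Ltbp2 passed the value limit only through the injured library. All 17 genes of the list summed to 0.256% of counts in control and 0.511% after injury. Eln (tropoelastin, chromosome 5, 134702593 to 134747323, minus strand) went from 29.1 to 1016, 35.0-fold (interval 29.8 to 41.3). Fbn1, the microfibril scaffold on which elastin is laid down, went from 37.2 to 533. Fbln2 went from 205 to 1804, Efemp2 (fibulin 4) from 8.54 to 76.5, and Ltbp2 from 2.3 to 60.7. The injured value of Eln is the highest of the 3 sorts, since CD140a(+)/Sca1(-) reached 504 and CD140a(+)/Sca1(+) 316, a comparison of single libraries.

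Matricellular and adhesive glycoproteins carry signals between cells and matrix. Of 31 used, 14 were higher (45.2%, against 3.94% of all genes used) and none lower. Postn (periostin) went from 109 to 2237, 20.5-fold (interval 18.9 to 22.3). Tnfaip6, which remodels hyaluronan in inflamed tissue, went from 217 to 1984, while in CD140a(+)/Sca1(+) it stood at 83.0 and 84.8. Ccn4 (Wisp1) went from 16.6 to 309, Tnc (tenascin C) from 45.3 to 401, Fn1 (fibronectin) from 99.6 to 859 and Spp1 (osteopontin) from 13.9 to 178. Sparc, a collagen-binding protein of the same list, went from 3663 to 25559 and became the second most abundant transcript of the injured library. Proteoglycans were higher in 8 of 21 (38.1%, against 3.94%) and lower in 1. Aspn (asporin) went from 6.38 to 235, Ogn (osteoglycin) from 37.7 to 431, Bgn (biglycan) from 184 to 1158, Vcan (versican) from 517 to 2002 and Lum (lumican) from 22.5 to 97.6. The cell surface syndecans Sdc1 and Sdc2 went from 110.2 to 679 and from 60.7 to 391. The member that was lower is Srgn (serglycin), a proteoglycan of secretory granules in blood and endothelial cells, from 325 to 75.4.

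**Figure D2:**
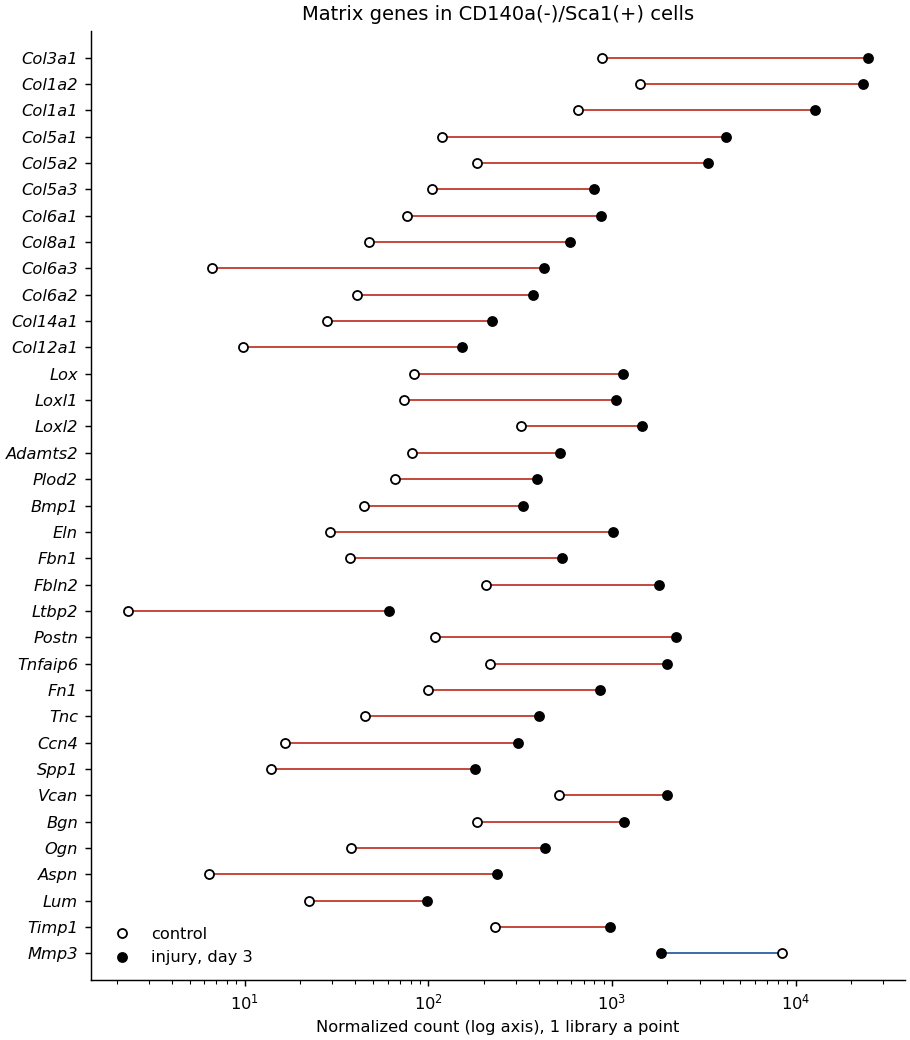
Normalized counts (log axis) of 35 named matrix genes in the control library (open circles) and in the library of day 3 after injury (filled circles) of CD140a(-)/Sca1(+) cells, with a line joining the 2 values of a gene, red where the injured value is higher. Of the 35, all but Mmp3 lie to the right of their control value, and Mmp3 went from 8439.5 to 1849.

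Matrix proteases and their inhibitors did not move as a group, with 3 of 32 higher, 2 lower and a median change of 0.35. Timp1, an inhibitor of metalloproteases, went from 229 to 976, Adam12 from 31.9 to 185 and Mmp19 from 15.3 to 97.4. Mmp3 (stromelysin 1), which cuts proteoglycans and activates other proteases, was the most abundant protease in control and stood 4.56-fold (interval 4.48 to 4.66) lower after injury. Its value in CD140a(+)/Sca1(+) cells went the other way, from 129.8 to 4365, a difference between sorts that was not tested. The gelatinases Mmp2 and Mmp9, named after their values were seen, went from 275 to 816 and from 204 to 605, just under 3-fold.

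Secreted signals were higher in several families. Inhba, the activin A subunit (chromosome 13, 16011851 to 16031621, plus strand), went from 546 to 6709, 12.3-fold (interval 11.8 to 12.8), and Fst (follistatin), which binds activin and blocks it, from 266 to 1129. Tgfb2 went from 63.1 to 551. Gdf15, a stress-induced member of the same superfamily, was the one TGF-beta list member that was lower, from 284 to 9.32. Of 19 genes used of the list, 4 were higher (21.1%, against 3.94% of all genes used) and 1 lower (5.26%, against 5.86%). Among ligands of the IGF, FGF, HGF, EGF and VEGF families 6 of 19 were higher (31.6%, against 3.94%) and 3 lower (15.8%, against 5.86%). Ereg (epiregulin, an EGF receptor ligand) went from 38.2 to 610.1, 16.0-fold (interval 13.9 to 18.5), Igf1 from 35.0 to 379 and Fgf2 from 48.9 to 210.2. Angptl2, related to the angiopoietins, went from 23.2 to 236, and Igfbp4, a carrier of IGFs, from 465 to 2464. The members that were lower were Angpt2 and Pgf (placental growth factor), ligands that act on vessels, and Igfbp5. Pgf went from 98.2 to 7.39. All 6 Wnt list members used had values above control and 4 were higher (66.7%, against 3.94%). They were Sfrp2 (30.4 to 459.6), Wnt11 (9.18 to 139), Sfrp1 (47.6 to 278) and Sfrp4 (91.1 to 339). The Sfrp proteins bind Wnts outside the cell. Sfrp2, Wnt11 and Sfrp1 passed the value limit only through the injured library, and 18 of the 24 list members were not used. Il11, a cytokine of the IL-6 family made by activated fibroblasts, went from 238 to 1563, 6.57-fold (interval 6.20 to 6.97). Il1rl1, the receptor for IL-33, went from 999 to 4318, and its ligand Il33 from 533 to 915, within 3-fold. Il6 itself stood at 283 and 296.

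Of the myofibroblast and contractile genes 7 of 18 were higher (38.9%, against 3.94% of all genes used) and none lower. Of the 7, all but Vim passed the value limit only through the injured library. All 27 genes of the list summed to 1.32% of counts in control and 1.89% after injury. Lrrc15, a membrane protein of matrix-producing fibroblasts, went from 6.0 to 135, 22.4-fold (interval 15.8 to 33.0). S100a4 went from 21 to 159, Palld (palladin, an actin cross-linker) from 52.5 to 220.3, Thy1 (CD90) from 10.7 to 64.0 and Vim (vimentin) from 454 to 1438. Acta2, the smooth muscle actin by which myofibroblasts are usually recognized, went from 82.8 to 224 and did not reach 3-fold. Lrrc17, a secreted leucine-rich repeat protein, was the most abundant transcript after injury and the third in control, at 28863 and 23634. Of the FAP list 3 of 24 were higher (12.5%, against 3.94%), Fbn1, Thbs4 and Lum, which passed the value limit only through the injured library. The list had 2 lower genes, Ly6a and Gsn (8.33%, against 5.86%), and 19 of the 24 had values above control (median change 0.63). Its abundant members Dcn (decorin) and Mfap5 stood at 4139 and 6949 and at 4831 and 6229.6. Pi16 and Dpt, markers of a progenitor state found in many tissues, stood at 107 and 309 and at 386 and 965, and Cxcl14 at 746 and 2173. Tendon cell markers were higher in 3 of 6 used (50%, against 3.94%), Cilp, Col12a1 and Thbs4. All 3 passed the value limit only through the injured library, and 9 of the 15 list members were not used. The list's summed share went from 0.110% to 0.201%.

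Cell cycle lists differed in their counts. None of 19 DNA replication genes used passed 3-fold in either direction, and Pcna stood at 656 and 455. Of 10 mitosis genes used, 4 were higher (40%, against 3.94% of all genes used). All 4 passed the value limit only through the injured library. Over all 57 genes of the list the summed share of counts was 0.0870% in control and 0.107% after injury. Cdk1, the kinase that drives entry into mitosis, went from 12.7 to 219, 17.3-fold (interval 13.6 to 22.6), Top2a from 5.25 to 70.0, Tpx2 from 15.0 to 84.1 and Smc4 from 35.0 to 129. The other 47 mitosis genes of the list lay under the value limit, Mki67 among them at 37.4 and 13.7. Cdkn1a (p21), an inhibitor of the cycle, was lower, from 4305 to 1003, and so was Ccnd1 (cyclin D1), from 96.2 to 22.4. In CD140a(+)/Sca1(+) the median change of the replication list was 2.49 and in CD140a(+)/Sca1(-) 0.93, beside 0.17 here.

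**Figure D3:**
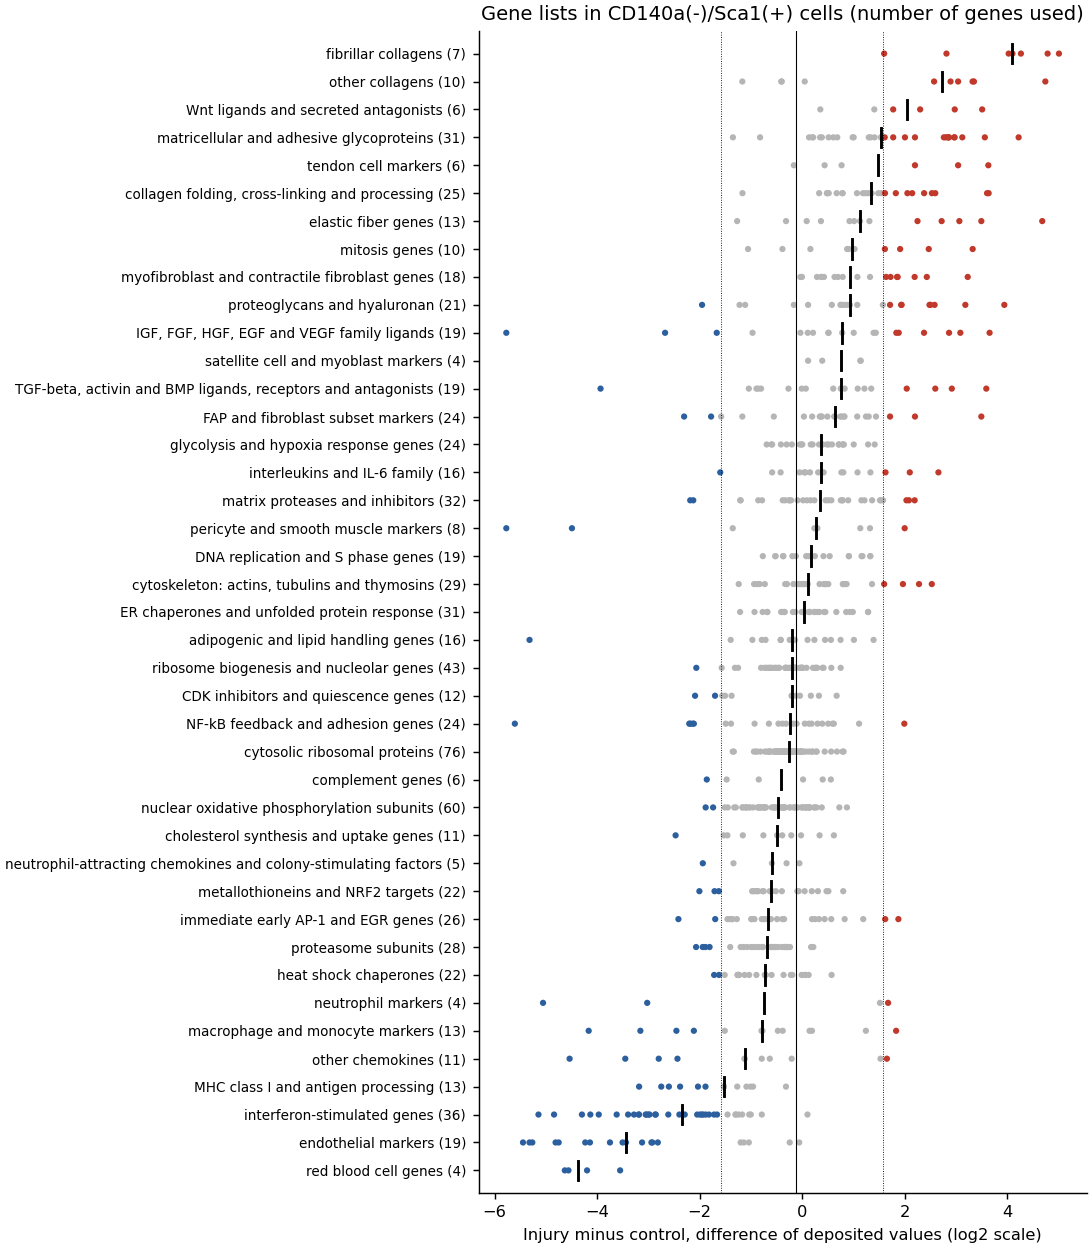
Change after injury (difference of deposited values, log2 scale, horizontal axis) of every gene used in each list with at least 4 such genes, for CD140a(-)/Sca1(+) cells. Points are genes, red where at least 3-fold higher and blue where at least 3-fold lower, the short black bar is the list's median, the thin line the median of all genes used (-0.13) and the dotted lines 3-fold; fibrillar collagens (median 4.10) lie at the top, and interferon-stimulated genes (-2.34), endothelial markers (-3.44) and red blood cell genes (-4.38) at the bottom.

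Blood vessel genes led the decreases. Angpt2 (angiopoietin 2, chromosome 8, 18690263 to 18741562, minus strand), which loosens vessels for remodeling, went from 820.4 to 5.70, 144-fold (interval 105 to 203) lower. Angpt2 lies inside Mcph1 on the opposite strand, and the sources do not say whether strand was used in counting. Selp, the endothelial and platelet selectin, went from 649 to 4.32. Mmrn2, an endothelial matrix protein, went from 246 to 0. Of 19 endothelial markers used, 14 were lower (73.7%, against 5.86% of all genes used), none was higher, and all 19 had a value below control. Cdh5 (VE-cadherin) went from 506 to 17, Emcn (endomucin) from 287 to 2.41, Egfl7 from 716 to 15.5 and Kdr (VEGF receptor 2) from 243 to 22.4. Nos3, the endothelial nitric oxide synthase, and the tight junction gene Cldn5 were listed at 0 after injury, from 216 and 52.9. Fabp4, a fatty acid carrier of capillaries and fat cells, went from 2318 to 47.2. Tspan7, a membrane protein of the endothelial list, went from 317 to 14.0, and Eng (endoglin) went from 333 to 156, within 3-fold. Ly6c1 and Cd36, which are also expressed outside vessels, stood near control, at 546 and 524 and at 150.2 and 125.

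Over all 44 endothelial markers of the list the summed share of counts went from 0.341% (0.338 to 0.345) to 0.0552% (0.0540 to 0.0564), with 1 marker at 0 in control and 16 after injury. In the other sorts the same sum went from 0.226% to 0.0397% and from 2.16% to 0.0909%, and 12 of the 14 genes were lower in all 3 sorts. In bulk samples fewer cells of a type and less RNA per cell cannot be told apart. Of 26 pericyte and smooth muscle markers 8 were used, with Rgs5 from 413 to 8.92 and Angpt2 lower and Cspg4 (NG2) higher, from 32.4 to 162, and their sum went from 0.0759% to 0.0346%. All 4 hemoglobin genes used were lower (100%, against 5.86% of all genes used), Hbb-bs from 322 to 4.24 and Hba-a2 from 199 to 1.02. They passed the value limit only through the control library, and 7 list members were not used. The near-identical copies Hba-a1 and Hba-a2 share reads and their split is uncertain. The sum of 11 red blood cell genes went from 0.0317% to 0.00249%. Among 21 lymphocyte markers 2 of 3 used were lower (66.7%, against 5.86%), Ighm from 125 to 0 and Cd79a from 90.7 to 1.61. Both passed the value limit only through the control library. The lymphocyte sum went from 0.0224% to 0.00432%, while both other control libraries held 0.00114% and 0.00311%. The antigen-presenting genes H2-Aa and H2-Ab1 went from 146 to 7.79 and from 54.4 to 3.07, S100a8 from 111 to 5.55, and S100a9 from 185 to 0, while the neutrophil receptor gene Cxcr2 was higher, from 243 to 801. Macrophage and monocyte markers as a whole summed to 0.100% and 0.118%, with Gpnmb higher, from 353 to 1288. The 20 neutrophil markers summed to 0.0376% in control and 0.0693% after injury. Lists of other cell types thus went both ways. The sums of the endothelial, pericyte, red blood cell and lymphocyte lists went down, and those of the neutrophil and macrophage lists went up. The part of such cells in the changes of this sort was not tested. Pax7 and Myod1, the defining genes of muscle stem cells and myoblasts, were at 1.31 and 3.75 in control and at 0 after injury. In their list all 4 genes used had values above control within 3-fold, Chrna1 at 65.6 and 158 and Des at 23.8 and 64.6 among them, and the 20 genes summed to 0.0897% and 0.129% of the counts.

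**Figure D4:**
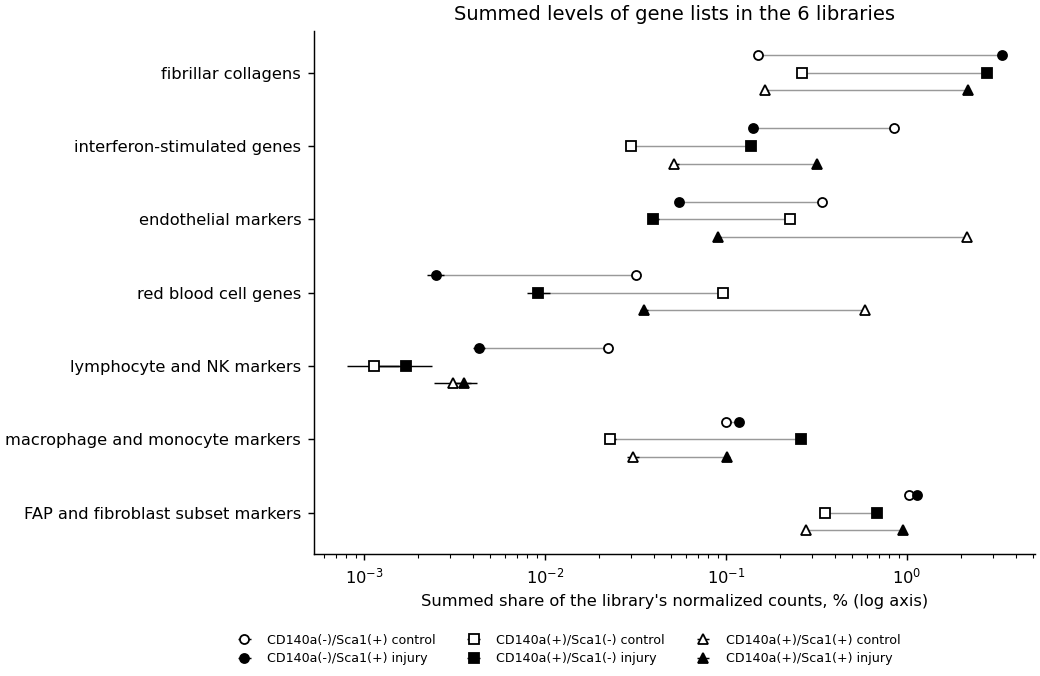
Summed share of each library's normalized counts (percent, log axis) held by all genes of 7 lists, in control (open) and injured (filled) libraries of CD140a(-)/Sca1(+) (circles), CD140a(+)/Sca1(-) (squares) and CD140a(+)/Sca1(+) (triangles), with 95% counting intervals. Fibrillar collagens move to the right and endothelial and red blood cell genes to the left in each sort, whereas interferon-stimulated genes move to the left in CD140a(-)/Sca1(+), from 0.843% to 0.142%, and to the right in the other 2 sorts.

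Genes switched on by interferon were lower as a group. Of 36 interferon-stimulated genes used, 27 were lower (75%, against 5.86% of all genes used), none was higher, and 35 had a value below control, with a median change of -2.34. Rsad2 (viperin, an antiviral enzyme of chromosome 12, 26442746 to 26456452, minus strand) went from 5931 to 327, 18.1-fold (interval 17.4 to 18.9) lower. Ifit3 went from 291 to 2.05, Ifit3b from 382 to 9.94 and Ifit1 from 442 to 45.6, all members of a family that binds viral RNA. Iigp1, a GTPase that attacks the vacuoles of parasites, went from 1012 to 54.1. Gbp4, a guanylate-binding protein whose span overlaps that of Gbp8 and Gbp9, went from 198 to 0. Transcription factors of the pathway were lower too, Irf7 from 879 to 86.5 and Stat2 from 137 to 36.0. The exception was Ifi27, at 84.1 and 91.2, and Xaf1 and Oas1a went down by less than 3-fold, from 518 to 295 and from 219.9 to 104.

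All 44 genes of the list, with no value limit, summed to 0.843% of counts in the control library here against 0.0298% in CD140a(+)/Sca1(-) and 0.0517% in CD140a(+)/Sca1(+). After injury the 3 sums were 0.142%, 0.137% and 0.318%, so the values lay closer together than in control. Since the 36 genes passed the value limit through the libraries of this sort, their levels in the other sorts describe genes chosen for being high here. Their median was 262 normalized counts in control and 52.2 after injury here, 4.78 and 8.99 in CD140a(+)/Sca1(-), and 14.4 and 125 in CD140a(+)/Sca1(+). In CD140a(+)/Sca1(+) 22 of the 27 genes were higher after injury, in CD140a(+)/Sca1(-) 9 were, and 7 were higher in both. Those 7 are Ifit3b and, named after their values were seen, Irf7, Ifit1, Usp18, Irgm2, Rtp4 and Oasl2. For Irf7 the values were 879 and 86.5 here, 4.44 and 129 in CD140a(+)/Sca1(-) and 44.5 and 848 in CD140a(+)/Sca1(+). Each sort has 1 library a state, so the difference between sorts was not tested. With a single control library, a property of the sort and a property of that library cannot be told apart.

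**Figure D5:**
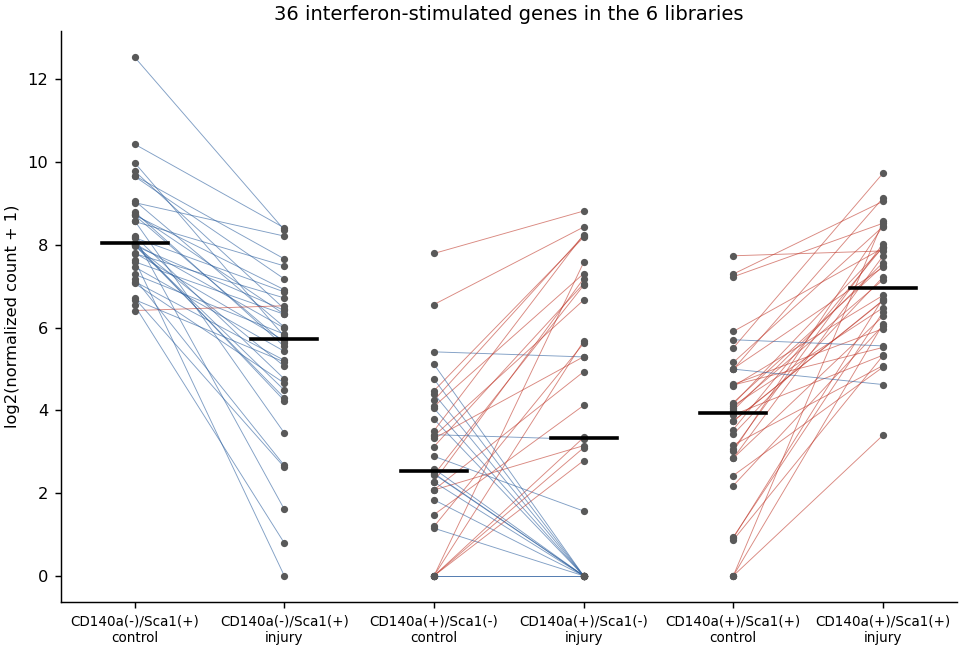
Log2(normalized count + 1) of the 36 interferon-stimulated genes used, in the control and injury libraries of the 3 sorts. Points are genes, lines join the 2 values of a gene (red where higher after injury, blue otherwise) and black bars are medians; the bar goes down from control to injury in CD140a(-)/Sca1(+) cells and up in the other 2 sorts, over genes that passed the value limit in CD140a(-)/Sca1(+) libraries.

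The list is of genes switched on by interferon, so a response element in their promoters is no result of these libraries. Promoters of 300 bases (from 250 before to 50 after the start) were in the RefSeq table of build GRCm38.p6 for 26 of the 36 genes, and the interferon response element GAAANNGAAA, read on both strands so that its other strand is TTTCNNTTTC, was in 15 of them, against 3.99% of the 27025 genes of the table. Among the 4412 genes used that have an entry, the element was in 4.22%. Of the 21 promoters of listed genes that were lower 12 held it, and of the 5 within 3-fold 3 did. Since 10 of the 36 have no entry, no share is read for the list as a whole. The windows below show an element in capitals, written 5′ to 3′ along the gene. They are from some of the genes that were lower and are named above. Ifit1, Ifit3 and Ifit3b hold a further match that is not in capitals, which for Ifit1 lies inside its window. Stat2 also holds the element and is not shown.
Rsad2 (chr12:26456538-26456597, minus strand, 18.1-fold lower): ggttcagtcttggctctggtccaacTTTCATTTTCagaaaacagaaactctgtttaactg
Ifit3 (chr19:34583348-34583407, plus strand): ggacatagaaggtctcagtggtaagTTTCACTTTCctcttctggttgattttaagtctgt
Ifit3b (chr19:34607744-34607803, plus strand): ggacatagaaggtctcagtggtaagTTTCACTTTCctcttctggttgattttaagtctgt
Ifit1 (chr19:34640779-34640838, plus strand): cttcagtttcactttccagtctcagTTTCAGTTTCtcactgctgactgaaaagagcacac
Irgm2 (chr11:58214888-58214947, plus strand): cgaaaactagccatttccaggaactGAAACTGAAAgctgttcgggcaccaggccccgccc
The windows of Ifit3 and Ifit3b are the same letter for letter, a pair of neighboring copies whose reads could be split between them by the counting. A match is a run of letters and does not show that a factor was bound in these cells.

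Some genes of antigen presentation and the interferon-induced chemokines were lower too. Of 13 genes of MHC class I and antigen processing, 6 were lower (46.2%, against 5.86% of all genes used) and 7 were within 3-fold. The 6 passed the value limit only through the control library. All 19 genes of the list summed to 0.335% of counts in control and 0.147% after injury. All 13 had a value below control, with a median change of -1.53. The lower ones were the immunoproteasome subunits Psmb8 (206 to 13.6), Psmb9 (105 to 12.1) and Psmb10 (75.7 to 4.97), the proteasome activators Psme1 (133 to 28.2) and Psme2 (159 to 14.9), and the peptide transporter Tap1 (159.7 to 30.9), which overlaps Psmb9. B2m, the light chain of class I molecules, stood at 3399.8 and 1406, within 3-fold, and the heavy chain gene H2-K1, one of a family of near-identical genes, at 308 and 99.5, a change of -1.53 on the deposited scale and so just inside the limit. Among chemokines other than those for neutrophils 4 of 11 were lower (36.4%, against 5.86%) and 1 higher (9.09%, against 3.94%). Cxcl9, Cxcl10 and Cxcl11, the interferon-induced attractants of T cells, stood at 434, 367 and 322 in control and at 71.2, 23.8 and 4.97 after injury, with Cxcl10 and Cxcl11 overlapping Art3 in the genome. Ccl5 went from 107 to 7.31, whereas Ccl9 went from 62.6 to 221. Ccl2, the main attractant of monocytes, was abundant and close to control, at 9181 and 7963, whereas CD140a(+)/Sca1(-) held 676 in control and 5029 after injury. The CD140a(+)/Sca1(+) libraries held 156 and 3275 Ccl2 counts.

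Cxcl1, an attractant of neutrophils, was the most abundant transcript of the control library. It held 82158 normalized counts or 3.66% of that library, and 21439 or 1.03% after injury, 3.83-fold (interval 3.81 to 3.85) lower. In the CD140a(+)/Sca1(-) libraries it held 0.593% and 1.29%, and in the CD140a(+)/Sca1(+) libraries 0.147% and 0.210%. Cxcl2, Cxcl5, Cxcl3 and Csf1 were also below control, all within 3-fold. Cxcl2 went from 5901 to 2324, Cxcl5 from 1973 to 1308 and Cxcl3 from 1067 to 1027. Of 24 genes of NF-kB feedback and adhesion, 5 were lower (20.8%, against 5.86% of all genes used) and 1 higher (4.17%, against 3.94%). Icam1 went from 335 to 63.9, Tnip1 from 864 to 191 and Irf1 from 119.7 to 19.2, and Sele and Selp, both endothelial selectins, are the other members that were lower. Ptgs2 (cyclooxygenase 2) was higher, from 616 to 2484, 4.03-fold (interval 3.89 to 4.19). C3, the central complement protein, went from 376 to 95.3, while it went from 3.12 to 77.0 and from 4.28 to 65.6 in the other sorts. Il1b went from 124 to 33.8.

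Housekeeping and stress lists ran from no gene past 3-fold to shares above that of all genes used. None of 76 cytosolic ribosomal protein genes passed 3-fold (median -0.26), none of 31 ER chaperone genes (median 0.04) and none of 24 glycolysis and hypoxia genes (median 0.37). Hspa5, the main ER chaperone, stood at 12268 and 12195. Of 43 ribosome biogenesis genes 1 was lower, Fbl (fibrillarin), from 173 to 33.2. Proteasome subunits had 4 of 28 lower (14.3%, against 5.86%) with a median of -0.68, Psmb3 from 639 to 144 among them. Oxidative phosphorylation had 2 of 60 lower, Ndufb9 and Ndufs1, heat shock chaperones 2 of 22 (9.09%), Hspa1b and Dnaja1, and NRF2 targets 3 of 22 (13.6%), Gsta1, Gsr and Nqo1, with Nqo1 from 105 to 26.9. Immediate early genes had 2 higher and 2 lower of 26, with Egr2 from 11.1 to 66.7 and Dusp2 from 62.4 to 4.53. Cholesterol synthesis genes had 1 lower of 11, Lss, from 67.9 to 4.93. The list of the cytoskeleton had 4 higher of 29 (13.8%, against 3.94%), the tubulin Tubb2b and Lgals1 (682 to 3988), Anxa1 and S100a6. Lgals1, Anxa1 and S100a6 are on this list but are not actins, tubulins or thymosins. Adipogenic genes had 1 lower of 16, Fabp4. The 12 most abundant genes held 11.7% of the counts in control and 10.9% after injury, and 7 genes were in both sets, with Col3a1, Col1a2, Col1a1, Sparc and Fstl1 entering after injury.

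Over the same 5579 genes, 652 were higher (11.7%) and 1750 lower (31.4%) in CD140a(+)/Sca1(-), and 903 were higher (16.2%) and 411 lower (7.37%) in CD140a(+)/Sca1(+), each against its own control library. In the injured CD140a(+)/Sca1(-) library 1020 of these genes were listed at 0, and their part in its counts was not tested. Of the 220 genes higher in CD140a(-)/Sca1(+), 111 were also higher in CD140a(+)/Sca1(-), 135 in CD140a(+)/Sca1(+), 83 in both and 57 in neither. Of the 327 lower genes, 150 were lower in CD140a(+)/Sca1(-), 112 in CD140a(+)/Sca1(+), 72 in both and 137 in neither. The 83 shared increases include the collagens Col1a1, Col3a1, Col5a1 and Col5a2, and Postn, Lox and Inhba. Opposite movement in both other sorts was seen for 18 of the lower genes and 2 of the higher ones, Tjp1 (a tight junction scaffold) and Fbxo33, which went from 16.3 to 90.1 and from 38.9 to 160.5. Among the 57 was Scn7a, a sodium channel listed with glial markers, which stood at 6.37 and 179 here, at 11.6 and 0 in CD140a(+)/Sca1(-) and at 13.2 and 14.3 in CD140a(+)/Sca1(+). Across the 5579 genes the correlation of the changes with those of CD140a(+)/Sca1(-) was 0.26 (Pearson) and 0.25 (Spearman), and with those of CD140a(+)/Sca1(+) 0.26 and 0.14. Genes are not independent replicates, the controls are not shared, and these values describe 6 libraries.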

How the data were processed

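Per the labels and methods, the authors sequenced QuantSeq 3' libraries on an Ion Proton, cleaned reads with FastX-Toolkit, mapped them with STAR to GRCm38 (mm10) with Ensembl release 90, counted genes with BRB-seqtools, and deposited log2-scale values after size factor normalization and variance stabilization in DESeq2. The sources used here do not say whether counting used strand. All 6 libraries share a lowest value of 2.57, that of a gene without a read.

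The deposited log2 values of the 2 columns were subtracted, and a gene counted as higher or lower at 3-fold or more. The log2 scale compresses differences of low genes. Values were also inverted to normalized counts, and the value of 1 read in each library was estimated from its low genes. With a tolerance of 0.02 reads, 54.7 to 61.6% of low values fell on whole reads, so reads are estimates and no count test was run. A fold is a ratio of normalized counts with an exact (Clopper-Pearson) 95% counting interval. It covers counting error only, and since reads carry no molecular identifiers and the replicate spread is unknown, it does not state how far another mouse would differ. For a gene listed at 0 no fold is given.

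Of the gene IDs, 22453 matched GENCODE M21 (build GRCm38) or, failing that, a further list of gene names, and 30 matched neither. Positions come from GENCODE M21. The 44 lists hold 1358 symbols, of which 1 had no match. The members and lists were chosen with earlier results of these data known. Named were the sort and gate genes, the 20 largest changes each way with a value of at least 8, up to 6 members past 3-fold per list (4 abundant ones where none passed), the genes drawn by the study and the 12 most abundant genes per library. Named after their values were seen were Acta2, B2m, Ccl2, Cd36, Cldn5, Col27a1, Csf1, Cxcl14, Cxcl2, Cxcl3, Cxcl5, Dcn, Dpt, Eng, Fbxo33, H2-K1, Ifi27, Ifit1, Il33, Il6, Irf7, Irgm2, Kdr, Ly6c1, Mfap5, Mki67, Mmp2, Mmp9, Myod1, Oas1a, Oasl2, Pax7, Pi16, Rps12-ps3, Rtp4, Stat2, Tjp1, Usp18, Vim and Xaf1. The alternatives were value limits of 5 and 7, no limit, pseudocounts of 1 and 4 on log2 normalized counts, and other scalings. The call and fold steps were tested on simulated counts. Python 3.11.15, pandas 2.3.3, numpy 2.4.6, scipy 1.17.1 and matplotlib 3.10.9 were used.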

Additional observations from a re-analysis of the deposited data

Results flagged for a closer look

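For the values below the difference between injury and control had one sign in CD140a(-)/Sca1(+) and the opposite sign in both other sorts, each sort having 1 control and 1 injured library, and no difference between sorts was tested. The median change of the interferon-stimulated genes was -2.34 in CD140a(-)/Sca1(+), against 1.19 in CD140a(+)/Sca1(-) and 2.51 in CD140a(+)/Sca1(+). Ifit3b changed by -4.29, against 3.37 and 6.04 in the same order of sorts, and its neighbor Ifit3 is a near-identical copy. Irf7 changed by -3.18, against 3.35 and 3.95, and Ifit1 by -2.997, against 2.66 and 2.97. Usp18, a brake on interferon signaling, changed by -2.61, against 3.58 and 2.60, and Irgm2 by -2.39, against 3.94 and 2.14. Rtp4 changed by -1.99, against 3.44 and 3.77, and Oasl2 by -2.05, against 1.69 and 3.41. The complement gene C3 changed by -1.86, against 2.87 and 2.51. The median of the chemokines other than those for neutrophils was -1.12, against 0.064, which is close to 0, and 2.70. In the opposite direction, Tjp1 changed by 1.92, against -2.86 and -1.75, and Fbxo33 by 1.78, against -4.62 and -2.15. The injured CD140a(+)/Sca1(-) library lists 1020 of the genes used at 0, and its part in these differences was not tested.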

How the results depend on the processing

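No leave-one-out or paired analysis was made. No paired analysis was possible because each state of the sort is 1 library, and the spread between mice is unknown. The direction of the centre was the same under all alternatives, at -0.26 with no value limit, -0.024 with the medians set equal and -0.067 with the 75th percentiles set equal. The count of lower genes became 211 at a limit of 7 and 690 with no limit, where 16568 genes entered. The count of higher genes ran from 159 to 311 over all 7 alternatives. Of 170 named genes past 3-fold, 166 stayed past it with the medians set equal, 167 with the 75th percentiles set equal, 170 under both pseudocounts and 134 at a limit of 7, which leaves fewer genes in. Of 41 lists with at least 4 genes used, 39 had a median of the same sign at a limit of 7 and 37 with no limit, the exceptions there being the other collagens, glycolysis, pericyte and satellite cell lists. With no limit the median of the other collagens turned to -0.0201 and that of the Schwann and glial markers to -0.29, as members with few reads entered. Genes under the value limit were not called at this depth.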

Other observations

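Some of the largest decreases belong to no list. Ctla2a, a protease inhibitor, went from 648 to 11.5 normalized counts, and F11r, a junctional adhesion molecule, from 393 to 21.6. Cplane1, a gene of ciliary function, went from 417 to 1.99, and Gm4070, a predicted gene, from 643 to 16.6. In CD140a(+)/Sca1(+) cells Gm4070 stood at 42.5 and 77.3 and Ctla2a at 2107 and 27.0, and in CD140a(+)/Sca1(-) cells at 4.95 and 0 and 146 and 42.0. Sqstm1, the autophagy receptor p62, and Timm22, part of a mitochondrial import pore, were among the 12 most abundant genes of the control library. Sqstm1 stood at 16520.2 and 11398 and Timm22 at 14069 and 4972 in control and after injury.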
